A study of Mus musculus with 6 samples.

Results

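The 8 transfer RNA (tRNA) types described here carry arginine (Arg), asparagine (Asn), isoleucine (Ile), phenylalanine (Phe), proline (Pro), threonine (Thr), tryptophan (Trp) and tyrosine (Tyr). They were chosen by their low share of the tRNA reads in mouse serum and make up 8 of the 21 types in the deposited lists. Because measured levels chose them, their levels are given as a description, and only differences between library preparation kits, which the rule of choice did not use, were tested. Earlier results of these data were, however, known when the members were chosen. The data were 6 small RNA libraries of serum from healthy male and female 129/SVj mice, a laboratory strain, aged 2 to 9 months and sedated with tribromoethanol at 250 mg/kg before blood was taken. All 6 libraries share this strain, age range and sedation, and differ by kit: 2 libraries each were made with the NEBNext Multiplex, the TruSeq v2 and the TailorMix v2 small RNA kits. The question was how far the kit sets which tRNA types are seen. The labels number the sera 1 and 2 within each kit and do not say whether the same number stands for the same mouse, so the spread between the 2 libraries of a kit, on which all p-values rest, may be biological or technical. The paper describes the RNA for its kit comparison as coming from single mice. The mouse, sex and age behind each library are not given. Differences between kits may therefore include differences between mice, and the 2 cannot be told apart here.

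A tRNA reads a codon of the messenger RNA with its anticodon and brings the amino acid that an aminoacyl-tRNA synthetase has loaded onto it. tRNAs that carry the same amino acid but have different anticodons are called isoacceptors, and several near-identical genes usually encode each of them. Under stress, or outside cells, tRNAs are found cut in or near the anticodon loop, and the stretches from the 5′ end to the cut, called 5′ tRNA-halves, are stable enough to circulate in blood.

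Genomic sequence of the members is printed here to show the stretch from which 5′ tRNA-halves come, the bases from the start of the gene up to the anticodon. The capitals mark the anticodon, the sequence runs 5′ to 3′ along the tRNA, and all positions are on the mouse build GRCm38. The sequences were read by position from GENCODE transcripts (Pro, Arg TCT) and from RefSeq windows (Thr, Arg TCG, Asn). That of Ile was read, in RNA letters, from the sequence of the Mir1983 miRNA hairpin.
n-TPtgg2 (Pro, chr11:67291139-67291210, plus strand, within a transcript of Myh8): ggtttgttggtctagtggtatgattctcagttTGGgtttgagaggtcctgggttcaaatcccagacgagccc
n-TTagt9 (Thr, chr7:35234770-35234843, minus strand): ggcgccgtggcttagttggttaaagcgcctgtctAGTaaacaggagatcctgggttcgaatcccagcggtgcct
n-TRtct2 (Arg, chr3:122292948-122293032, minus strand, within a transcript of Gm17494): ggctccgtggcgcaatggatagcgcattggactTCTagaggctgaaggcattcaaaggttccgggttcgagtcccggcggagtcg
n-TRtcg5 (Arg, chr7:79466419-79466491, plus strand, upstream of Polg): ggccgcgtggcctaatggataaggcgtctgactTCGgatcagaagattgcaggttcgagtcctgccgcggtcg
n-TNgtt6 (Asn, chr1:171033969-171034015, minus strand, the first 47 of 74 bases): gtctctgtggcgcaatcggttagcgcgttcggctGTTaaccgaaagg
n-TItat14 (Ile, chr13:21896938-21897031, minus strand): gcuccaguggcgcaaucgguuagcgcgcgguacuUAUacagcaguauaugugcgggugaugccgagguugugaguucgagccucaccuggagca
In these genes 32 to 34 bases precede the anticodon. The lists of reads give neither sequence nor read length, so the genes printed are examples of their isoacceptor and are not known to be the genes the reads came from. Of Phe, Trp and Tyr no gene is printed.

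The libraries held between 4911281 tRNA reads (TailorMix replicate 1) and 25976737 (NEBNext replicate 1), with NEBNext the deepest kit and TailorMix the shallowest. Reads of the 8 types numbered 20401 to 115744 per library and lay on 651 to 1717 distinct listed sequences, named for 91 to 107 tRNA genes and 17 or 18 anticodons. A count of 3 reads, the floor below which nothing is read from a value, corresponds to 0.115 to 0.611 reads per 1000000 tRNA reads of a library (RPM, the unit of level used here). Within each kit the 2 libraries differed by more than counting noise over these types. Divided by its 8 degrees of freedom, chi-square was 78.1 in NEBNext, 8.14 in TruSeq and 6.07 in TailorMix, and the libraries were counted as separate samples.

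The 8 types together made up 0.446% and 0.491% of tRNA reads with NEBNext. The TruSeq libraries had 0.571% and 0.552%, and the TailorMix libraries 0.415% and 0.437%. TruSeq was highest and TailorMix lowest, without overlap between kits, and the two-sided exact permutation test of the ratio of between-kit to within-kit variance gave p = 0.0667, the smallest value that the 15 groupings of 6 libraries into 3 pairs allow. Pro carried most of this sum, at 84.8% to 88.8% of the reads of the 8 types. Pro, Thr and Arg together reached 94.0% to 98.9%, which left 1.1% to 5.96% for Asn, Ile, Phe, Trp and Tyr. Without Pro, the remaining types summed to 679 ± 93.5 RPM in NEBNext, 647 ± 42.9 in TruSeq and 542 ± 14.3 in TailorMix (SD, n = 2 each). NEBNext and TruSeq overlapped in this sum, and the exact permutation test gave p = 0.333.

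The members spanned a wide range, and not all of them were scarce. In the mean of the kits Phe was the lowest of all 21 types, at 5.05 RPM, and Pro was the seventh highest, at 4231. The choice followed no threshold on the level: 7 types outside it lay below Pro, namely the selenocysteine type SeC (11.4 RPM), Cys (84.1), Ser (303), Ala (572), Leu (1289), Met (1768) and Gln (3248). The order of the members changed with the kit. From low to high it ran Ile, Phe, Asn, Trp, Arg, Tyr, Thr, Pro in NEBNext, then Phe, Tyr, Asn, Trp, Ile, Thr, Arg, Pro in TruSeq, and Phe, Tyr, Ile, Trp, Asn, Arg, Thr, Pro in TailorMix. Neighbours in these orders did not overlap, except Trp with Ile in TruSeq and Tyr with Ile in TailorMix. These levels are shares of reads and were not divided by gene length, which ran from 72 to 94 bases in the genes printed.

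**Figure D1:**
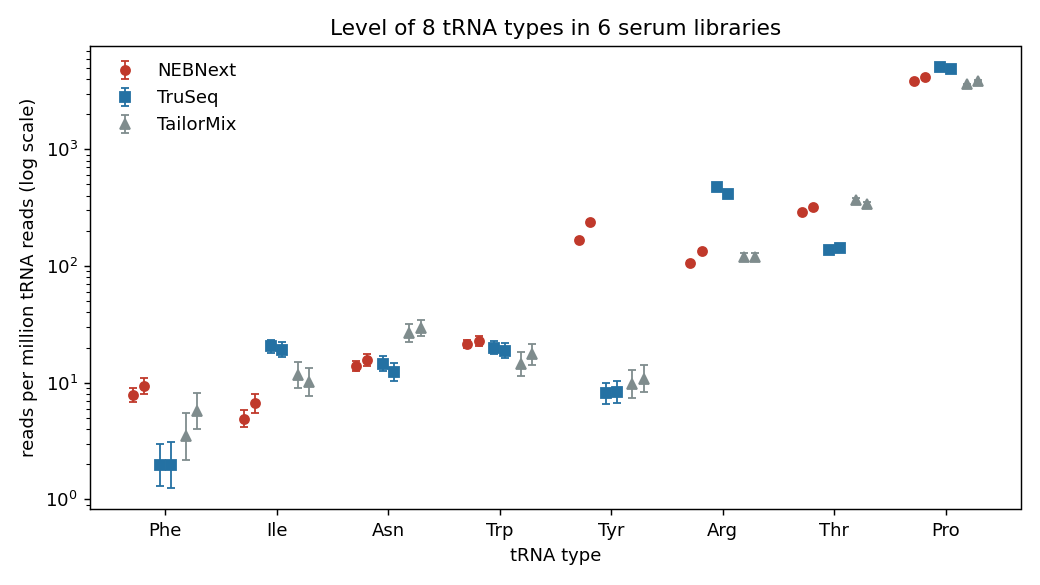
Level of each of the 8 types in each of the 6 libraries, in RPM (reads per 1000000 tRNA reads) on a log axis. Points are single libraries with 95% Wilson intervals, which cover counting error only, and types are ordered by their mean over kits. The NEBNext libraries stand far above the other kits for Tyr (169 and 238 against 8.09 to 10.9), and the TruSeq libraries for Arg (475 and 412 against 106 to 134).

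Kits were compared in every type with edgeR's quasi-likelihood test, taking all tRNA reads of a library as its size, with Benjamini-Hochberg adjustment over all 21 types. By the test of any difference between kits, 7 of the 8 types passed at an adjusted p under 0.05, with Trp the exception, against a background of 95.2% of all types. TruSeq against NEBNext gave 3 members higher (Arg, Ile and Pro, background 33.3% of all types) and 3 lower (Phe, Thr and Tyr, background 52.4%). TailorMix against NEBNext gave 2 higher (Asn and Ile, background 28.6%) and 2 lower (Phe and Tyr, background 38.1%). TailorMix against TruSeq gave 3 higher (Asn, Phe and Thr, background 57.1%) and 3 lower (Arg, Ile and Pro, background 33.3%). These shares over all types include the members, and whether members were called less often than other types was not tested. Their median absolute log2 fold change was 1.46 for TruSeq against NEBNext, 0.68 for TailorMix against NEBNext and 0.97 for TailorMix against TruSeq, beside 1.89, 0.93 and 1.48 over all types. The 3 kits were separated without overlap in 6 of the 8 members, and in 81% of all types. The exact permutation test gave p = 0.0667 for each of those 6 members (0.0824 after adjustment over the 21 types), p = 0.133 for Asn and p = 0.2 for Arg.

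All these differences are in shares of tRNA reads, which must sum to the same total in each library, and another scaling moves every type together. Scaling by trimmed mean of M-values (TMM) raised the log2 fold changes of all members by 1.41 for TruSeq and by 1.5 for TailorMix, both against NEBNext, and by 0.09 between TailorMix and TruSeq. DESeq2's size factors moved the same contrasts by 0.70, 0.11 and -0.59. Dividing by the tRNA reads without Glu, Gly, Val and His, the most abundant types, moved them by -0.40, 0.01 and 0.41. The calls in which a member's direction depends on these choices are named with that member.

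**Figure D2:**
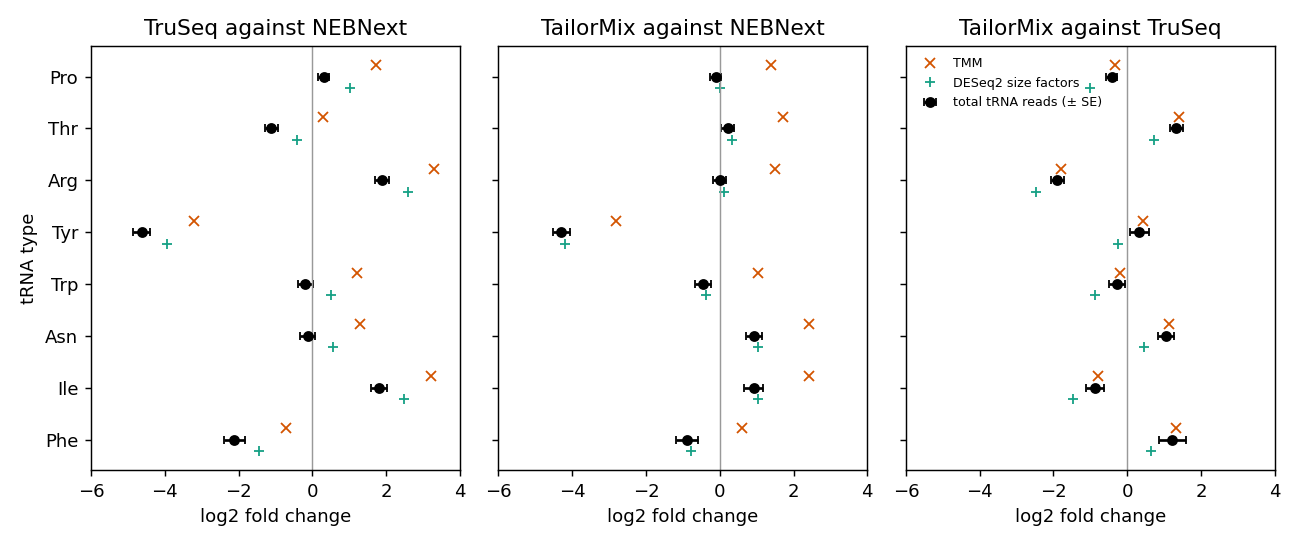
Log2 fold change of the 8 types in the 3 contrasts between kits. Black points are the edgeR estimates from shares of all tRNA reads (bars, standard error), crosses the same after TMM and plus signs those with DESeq2 size factors. Tyr stays left of 0 in both contrasts with NEBNext and Arg and Ile stay right of 0 for TruSeq against NEBNext under all 3 scalings, while Thr (TruSeq against NEBNext) and Phe (TailorMix against NEBNext) change side under TMM.

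Tyr tRNA, whose genes contain an intron and whose anticodon GTA begins with a G that is modified to queuosine, had the largest ratio between kits in its share of tRNA reads among the members. Its level was 169 and 238 RPM in NEBNext, 8.09 and 8.33 in TruSeq and 9.77 and 10.9 in TailorMix. Both NEBNext libraries lay far above the other 4, which did not overlap by kit but lay close together. The highest kit mean was 24.8 times the lowest. Tyr fell by 4.63 on the log2 scale in TruSeq against NEBNext (standard error, SE, 0.22, edgeR adjusted p = 1.95e-29) and by 4.30 in TailorMix against NEBNext (SE 0.23, edgeR adjusted p = 1.72e-26), and both directions held under every scaling. Between TailorMix and TruSeq the log2 fold change was 0.33 (SE 0.26, edgeR adjusted p = 0.222), which turned to -0.26 with DESeq2 and passed at 0.74 when divided by the tRNA reads without Glu, Gly, Val and His (edgeR adjusted p = 0.00424). These p-values borrow the spread of all 21 types. In the fit over 47 anticodons, on the same Tyr reads, the adjusted p of the test of kit was 0.00015, against 6.24e-34 in the fit over types.

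A single listed sequence carried most of the Tyr reads of the NEBNext libraries. It had 2996 reads (68.4% of Tyr) in NEBNext replicate 1 and 2793 reads (69.9%) in replicate 2. The second sequence followed with 817 and 750 reads, 18.7% and 18.8% of Tyr. In the TruSeq and TailorMix libraries no Tyr sequence had more than 10 reads, and its top sequence held 8.79% to 18.2% of the type. Sequences read once made up 1.48% and 1.67% of Tyr reads in NEBNext, and 27.3% to 38.2% in the other kits. Such shares depend on the number of Tyr reads, which was 4379 and 3996 in NEBNext and 48 to 91 in the other kits. The lists number sequences separately in each library, so it is not known whether the top sequence was the same in different libraries.

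Arg tRNA, which has the most anticodons of the members and is loaded by a class I synthetase, was highest in TruSeq. With NEBNext it reached 106 and 134 RPM, with TruSeq 475 and 412 and with TailorMix 120.1 and 119. TruSeq lay above the other kits without overlap, and the TailorMix values fell between the NEBNext ones. Arg rose by 1.89 on the log2 scale in TruSeq against NEBNext (SE 0.18, edgeR adjusted p = 2.29e-15) and fell by 1.89 in TailorMix against TruSeq (SE 0.18, edgeR adjusted p = 5.68e-15). Between TailorMix and NEBNext the log2 fold change was -0.0019 (SE 0.18, edgeR adjusted p = 0.992), and it was 1.5 under TMM (edgeR adjusted p = 1.17e-10).

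The Arg isoacceptors did not move together. In the anticodon fit, reads were tested in the same way over the 47 anticodons with at least 10 reads in at least 2 libraries. Arg CCG made up 32.4% and 36.6% of Arg reads in NEBNext, 77.7% and 73.6% in TruSeq, and 18.0% and 11.3% in TailorMix. TruSeq was highest and TailorMix lowest without overlap (exact permutation test, p = 0.0667, 0.173 after adjustment over the 13 types with several anticodons). In RPM Arg CCG rose by 3.01 on the log2 scale in TruSeq against NEBNext (SE 0.34, edgeR adjusted p = 0.00117) and fell by 4.26 in TailorMix against TruSeq (SE 0.36, edgeR adjusted p = 0.000403), both in the same direction under TMM and DESeq2.

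Arg TCT, whose genes contain an intron and of which n-TRtct2 above is an example, led in TailorMix with 64.1% and 64.6% of Arg reads, against 12.8% to 19.7% in the other kits. Its level was 18.1 and 17.1 RPM in NEBNext, 82.3 and 81.3 in TruSeq, and 77.0 in both TailorMix libraries. It rose by 2.22 on the log2 scale in TruSeq (SE 0.12, edgeR adjusted p = 0.000117) and by 2.13 in TailorMix (SE 0.12, edgeR adjusted p = 0.000347), both against NEBNext and in the same direction under TMM and DESeq2. Arg CCT and Arg TCG went the other way. Arg CCT held 32.6% and 34.7% of Arg reads in NEBNext and 2.79% to 12.6% in the other kits, and fell by 1.5 in TruSeq and by 1.48 in TailorMix against NEBNext (edgeR adjusted p = 0.00191 and 0.00301), directions that TMM and DESeq2 kept. Arg TCG fell by 1.72 and 2.16 in the same contrasts (edgeR adjusted p = 0.00699 and 0.0058), with the same directions under TMM and DESeq2, and its TruSeq call was lost under TMM (-0.89, edgeR adjusted p = 0.0612). The genes n-TRtct2 and n-TRtcg5 printed above share 21 of their first 30 bases. Arg ACG, the remaining isoacceptor, held 1.44% to 8.44% of Arg reads and did not pass the test of kit (edgeR adjusted p = 0.974).

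The top Arg sequence of TruSeq had 3103 and 2027 reads, 58.0% and 53.9% of the type, and was named CCG in both libraries. In TailorMix the top sequence was named TCT in both libraries, with 37.3% and 38.1% of Arg reads. In NEBNext Arg was more evenly spread: the top sequence, named CCG, had 12.4% and 14.3%, and 23 and 21 sequences were needed to reach 50% of Arg reads, against 1 in each TruSeq library and 3 and 4 in TailorMix.

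Thr tRNA, loaded by a class II synthetase, was lowest in TruSeq. Its level was 290.0 and 318 RPM in NEBNext, 137 and 144 in TruSeq and 366 and 339 in TailorMix. The kits did not overlap, with TailorMix highest. Thr was 1.33 higher on the log2 scale in TailorMix than in TruSeq (SE 0.18, edgeR adjusted p = 4.35e-10). The direction held under every scaling, with sizes from 0.73 (DESeq2) to 1.74 (divided by the tRNA reads without Glu, Gly, Val and His). It fell by 1.11 in TruSeq against NEBNext (SE 0.17, edgeR adjusted p = 3.16e-08), but this contrast turned to 0.30 under TMM (edgeR adjusted p = 0.114). TailorMix and NEBNext differed by 0.22 (SE 0.17, edgeR adjusted p = 0.269), and by 0.28 without NEBNext replicate 2. This contrast was 1.72 under TMM (edgeR adjusted p = 8.31e-13) and 0.33 with DESeq2 (DESeq2 adjusted p = 0.0541).

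Within Thr, the anticodon TGT led in every library, with 80.9% and 81.0% of Thr reads in NEBNext, 71.9% and 71.8% in TruSeq, and 94.4% and 93.5% in TailorMix. The libraries of a kit agreed within 1 percentage point and the kits did not overlap (exact permutation test, p = 0.0667, 0.173 after adjustment). Thr AGT, the isoacceptor of n-TTagt9 above, whose first anticodon base A is edited to inosine, made up the largest part of the rest, with 15.6% and 15.5% in NEBNext, 24.0% and 23.8% in TruSeq, and 5.003% and 5.30% in TailorMix. These isoacceptors changed in opposite directions in TailorMix against TruSeq: Thr TGT rose by 1.71 on the log2 scale (SE 0.16, edgeR adjusted p = 0.000596) and Thr AGT fell by 0.89 (SE 0.12, edgeR adjusted p = 0.0027), also under TMM and DESeq2. In TruSeq against NEBNext, Thr AGT was -0.49 (edgeR adjusted p = 0.0168) but turned to 0.34 under TMM (edgeR adjusted p = 0.0297) and to 0.09 with DESeq2. Thr CGT held 0.556% to 4.34%. RefSeq lists 9 nuclear genes for Thr AGT and 4 each for Thr TGT, which led in reads, and Thr CGT. A relation between the number of genes and the reads was not tested.

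**Figure D3:**
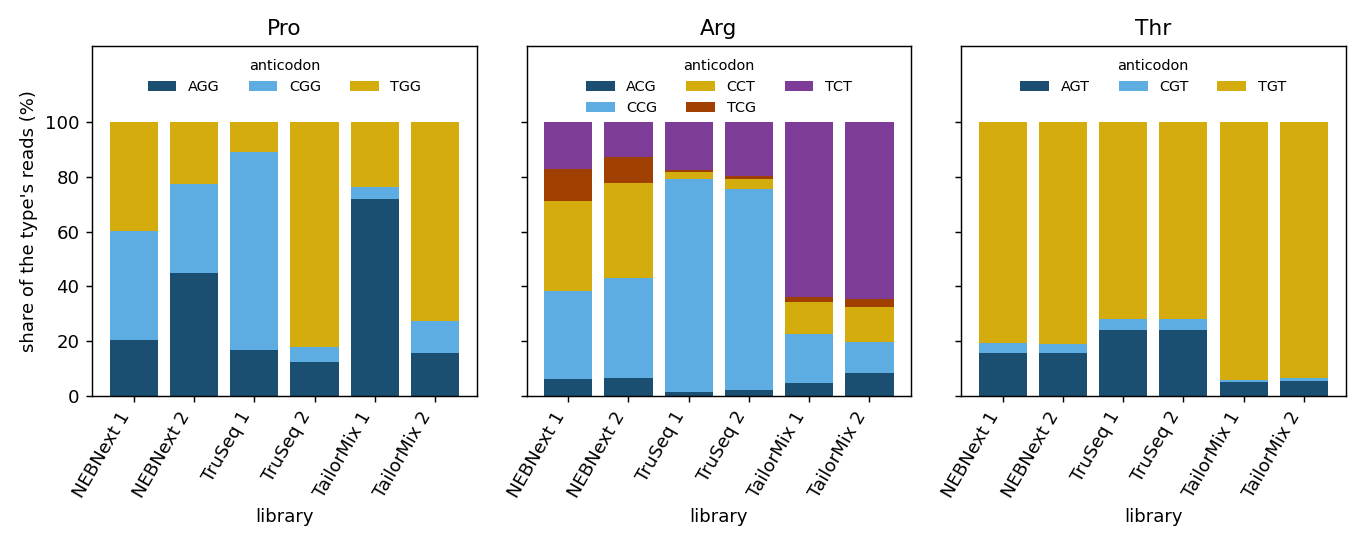
Share of a type's reads by anticodon, in percent, for Pro, Arg and Thr in each library (stacked bars that sum to 100). The 2 libraries of a kit are alike for Arg and Thr, whereas for Pro TGG goes from 10.8% to 82.1% between the 2 TruSeq libraries and AGG from 72.03% to 15.7% between the TailorMix libraries.

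Pro tRNA, the most abundant member, had the smallest ratio between kits in its share of tRNA reads. With NEBNext it reached 3843 and 4162 RPM, with TruSeq 5033 and 4908 and with TailorMix 3602 and 3838. TruSeq was highest and TailorMix lowest without overlap, although TailorMix replicate 2 and NEBNext replicate 1 lay close together. The highest kit mean was 1.34 times the lowest. Pro was 0.31 higher on the log2 scale in TruSeq than in NEBNext (SE 0.15, edgeR adjusted p = 0.0494), but -0.09 when divided by the tRNA reads without Glu, Gly, Val and His, 1.73 under TMM (edgeR adjusted p = 3.75e-15) and 1.01 with DESeq2 (DESeq2 adjusted p = 2.49e-13). Between TailorMix and NEBNext the log2 fold change was -0.11 (SE 0.15, edgeR adjusted p = 0.537), which turned to 1.4 under TMM (edgeR adjusted p = 5.29e-12). It was 0.42 lower in TailorMix than in TruSeq (SE 0.15, edgeR adjusted p = 0.00817), which came to -0.01 (edgeR adjusted p = 0.96) with the same divisor. The TruSeq call against NEBNext was lost without either TruSeq library or either TailorMix library (edgeR adjusted p = 0.0556 to 0.152), and the TailorMix call against TruSeq without either TailorMix library (edgeR adjusted p = 0.161 and 0.0852).

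The named anticodons of Pro, in contrast to its level, differed sharply between libraries of the same kit. Pro TGG, the isoacceptor of n-TPtgg2 above, held 39.7% and 22.4% of Pro reads in NEBNext, 10.8% and 82.1% in TruSeq, and 23.7% and 72.6% in TailorMix. Pro CGG held 39.9% and 32.6%, 72.5% and 5.74%, and 4.31% and 11.7% in the same order, and Pro AGG 20.4% and 45.0%, 16.7% and 12.2%, and 72.03% and 15.7%. For Pro TGG all 3 kits overlapped (exact permutation test, p = 0.933). None of the 3 passed the test of kit (edgeR adjusted p = 0.455 for AGG, 0.231 for CGG and 0.757 for TGG). With the 3 summed in the fit over anticodons, Pro did not pass the test of kit either (edgeR adjusted p = 0.0593). There TruSeq against NEBNext gave 0.31 (edgeR adjusted p = 0.0807) and TailorMix against TruSeq -0.42 (edgeR adjusted p = 0.0318).

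The top Pro sequence of each library held a similar share of the type within a kit, but was listed under different anticodons in the 2 libraries. As the lists number sequences separately in each library, it is not known whether it was the same sequence in both. In TruSeq it had 40.9% of Pro reads under the name CGG in replicate 1 and 42.4% under TGG in replicate 2. In TailorMix it had 54.0% under AGG and 54.5% under TGG, and in NEBNext 22.0% under CGG and 20.6% under AGG. The second sequence lay close behind in NEBNext, with 21.5% under TGG in replicate 1 and 19.7% under CGG in replicate 2. Each distinct sequence is listed under a single gene, and a sequence that genes of several anticodons share cannot be told apart by these lists. Whether this sharing sets the Pro anticodon values was not tested, and they are given as the lists name them.

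Ile tRNA, loaded by a class I synthetase, was highest in TruSeq. Its level was 4.93 and 6.68 RPM in NEBNext, 20.6 and 19.2 in TruSeq and 11.6 and 10.1 in TailorMix, from 51 to 232 reads per library. The kits did not overlap, in the order NEBNext, TailorMix, TruSeq. Ile rose by 1.8 on the log2 scale in TruSeq (SE 0.21, edgeR adjusted p = 1.32e-11) and by 0.92 in TailorMix (SE 0.25, edgeR adjusted p = 0.00101) against NEBNext, and fell by 0.88 in TailorMix against TruSeq (SE 0.24, edgeR adjusted p = 0.000615). These directions held under every scaling.

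Ile AAT, whose first anticodon base is edited to inosine, carried 78.1% to 93.7% of Ile reads and led in every library. The share was 78.1% and 86.6% in NEBNext, 88.8% and 93.7% in TruSeq, and 87.7% and 88.2% in TailorMix (exact permutation test, p = 0.0667, 0.173 after adjustment). The exact p rose to 0.267 without NEBNext replicate 1 or either TruSeq library and to 0.333 without either TailorMix library. Ile TAT, encoded by an intron-containing gene (n-TItat14 above, the only nuclear Ile TAT gene that RefSeq lists, against 15 for Ile AAT), had 5 to 28 reads per library and did not pass the test of kit (edgeR adjusted p = 0.25). Ile GAT had 0 to 2 reads in every library, under the floor of 3 counts.

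Asn tRNA, which has the single anticodon GTT with a queuosine-modified first base, was highest in TailorMix. With NEBNext it reached 13.97 and 15.6 RPM, with TruSeq 14.6 and 12.4 and with TailorMix 26.7 and 29.4, from 113 to 363 reads per library. TailorMix stood above the other kits, which overlapped. Asn rose by 0.93 on the log2 scale in TailorMix against NEBNext (SE 0.21, edgeR adjusted p = 6.12e-05) and by 1.05 against TruSeq (SE 0.22, edgeR adjusted p = 1.4e-05), in the same direction under every scaling. Counting only sequences with at least 4 reads, the first of these calls was lost (0.67, edgeR adjusted p = 0.0543). TruSeq and NEBNext differed by -0.12 (SE 0.21, edgeR adjusted p = 0.58). This value turned to 1.29 under TMM (edgeR adjusted p = 3.52e-07) and to 0.56 with DESeq2 (DESeq2 adjusted p = 0.00142). Divided by the tRNA reads without Glu, Gly, Val and His, it passed on the lower side (-0.52, edgeR adjusted p = 0.00701). The top Asn sequence held 28.7% and 32.6% of Asn reads in NEBNext, 41.5% and 44.2% in TruSeq, and 24.4% and 15.4% in TailorMix. The TailorMix shares were the smallest but rest on 32 and 23 reads. The top sequence had 104 and 85 reads in NEBNext and 68 and 50 in TruSeq. How far depth set these Asn shares was not tested.

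Phe tRNA, with the single anticodon GAA whose first base is a G without queuosine, was the scarcest type in the mean of the kits, though not within NEBNext, and was highest in NEBNext. Its level was 7.85 and 9.30 RPM in NEBNext, 1.96 and 1.97 in TruSeq and 3.46 and 5.73 in TailorMix. The kits did not overlap, but the TruSeq and TailorMix values rest on 17 to 29 reads, and the 95% Wilson interval of TailorMix replicate 1, 2.16 to 5.54 RPM, reached into those of the TruSeq libraries. Phe fell by 2.11 on the log2 scale in TruSeq against NEBNext (SE 0.29, edgeR adjusted p = 6.15e-10). The direction held under every scaling, with a smaller size under TMM (-0.71, edgeR adjusted p = 0.0326) and with DESeq2 (-1.44). It fell by 0.89 in TailorMix against NEBNext (SE 0.29, edgeR adjusted p = 0.00455), which turned to 0.61 under TMM and lost its call without TailorMix replicate 1 (-0.58, edgeR adjusted p = 0.137). It was 1.23 higher in TailorMix than in TruSeq (SE 0.38, edgeR adjusted p = 0.00213), a call lost without TailorMix replicate 2 (0.81, edgeR adjusted p = 0.0892) and with DESeq2 (0.65, DESeq2 adjusted p = 0.0678). The turn of Phe under TMM in TailorMix against NEBNext was seen only in the fit over types. On the same reads in the fit over anticodons, TMM gave -0.67 (edgeR adjusted p = 0.0865). Sequences read once made up 72.7% and 33.3% of Phe reads in TruSeq and 52.9% and 37.9% in TailorMix, against 10.8% and 19.2% in NEBNext. Such shares depend on the number of reads, which was 17 to 29 in TruSeq and TailorMix but 204 and 156 in NEBNext.

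Trp tRNA, with the single anticodon CCA, had the second smallest ratio between kits in its share of tRNA reads, after Pro. With NEBNext it reached 21.6 and 22.8 RPM, with TruSeq 19.996 and 18.9 and with TailorMix 14.5 and 17.6. The kits did not overlap, in the order TailorMix, TruSeq, NEBNext, but the test of kit over types gave an edgeR adjusted p of 0.108. The log2 fold change of TailorMix against NEBNext was -0.47 (SE 0.22, edgeR adjusted p = 0.0501), and it passed without either NEBNext library (-0.51 and -0.43, edgeR adjusted p = 0.00965 and 0.0217). On the same reads it passed in the fit over anticodons (-0.47, SE 0.15, edgeR adjusted p = 0.0475). Under TMM it was 1.03 in the fit over types and -0.25 in that over anticodons. TruSeq against NEBNext gave -0.19 (SE 0.20, edgeR adjusted p = 0.378). It turned to 1.22 under TMM (edgeR adjusted p = 3.52e-07) and 0.50 with DESeq2 (DESeq2 adjusted p = 0.00265). With the tRNA reads without Glu, Gly, Val and His as divisor it passed on the lower side (-0.59, edgeR adjusted p = 0.00165). TailorMix against TruSeq gave -0.28 (SE 0.23, edgeR adjusted p = 0.222). That value turned to 0.13 with the same divisor and passed at -0.87 with DESeq2 (DESeq2 adjusted p = 1.1e-05). Trp reads of TailorMix lay on many rarely read sequences: the top sequence had 6 and 4 reads, and sequences with at least 4 reads held 22.5% and 13.5% of Trp reads, against 66.9% to 73.4% in the other kits. Counting only sequences with at least 4 reads, the log2 fold change of TailorMix against NEBNext was -2.52 (edgeR adjusted p = 1.41e-07). TailorMix had 71 and 89 Trp reads in all, against 560 and 382 in NEBNext. A fixed minimum of reads is a higher level in the shallower kit. A count of 3 is 0.611 and 0.592 RPM in TailorMix but 0.115 and 0.179 in NEBNext. How far depth set these Trp values was not tested.

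**Figure D4:**
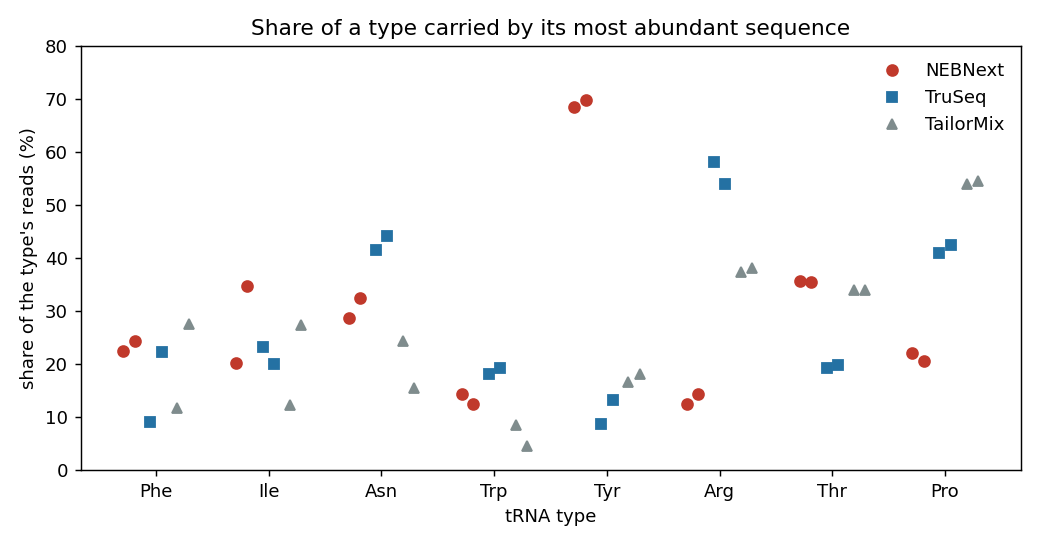
Share of each type's reads carried by its most abundant listed sequence, in percent, a point for each library. Tyr in NEBNext (68.4% and 69.9%), Arg in TruSeq (58.0% and 53.9%) and Pro in TailorMix (54.0% and 54.5%) rest mostly on a single sequence, whereas Trp stays at or below 19.2% in every library.

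Over all isoacceptors of the members, 17 of 18 had enough reads to be tested and 11 passed the test of kit, against a background of 74.5% of the 47 anticodons tested. The 6 that did not were Pro AGG, CGG and TGG, Arg ACG, Ile TAT and Trp CCA. Grouped by known tRNA biology, 2 of the 4 isoacceptors with a first anticodon base edited to inosine passed (Ile AAT and Thr AGT, not Arg ACG or Pro AGG). Both isoacceptors with queuosine passed, Asn GTT as higher in TailorMix and Tyr GTA as higher in NEBNext, so they did not share a direction. Of the 3 from genes with introns, Tyr GTA and Arg TCT passed and Ile TAT did not. By synthetase class, 3 of the 4 types of class I (Arg, Ile and Tyr, not Trp) and all 4 of class II (Asn, Phe, Pro and Thr) passed in the fit over types, in which 95.2% of all types did. Pro did not pass in the fit over anticodons with its anticodons summed (edgeR adjusted p = 0.0593).

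The number of annotated genes is a further property that the choice of members did not use. RefSeq lists 24 nuclear genes for Arg, 17 for Thr, 16 each for Pro and Ile, 13 for Asn, 10 for Tyr, 8 for Trp and 7 for Phe. Phe had both the fewest genes and the lowest mean level, and Ile and Pro, with the same number of genes, had mean levels of 12.2 and 4231 RPM. Levels chose the members, and a relation between gene number and level was not tested. Reads of nuclear and mitochondrial tRNA genes were not separated.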

How the data were processed

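Small RNA of mouse serum was sequenced in 6 libraries, 2 for each of 3 kits, and groups came from the kit and serum number in the sample titles. The deposited values are raw read counts of each distinct sequence, each with an RNA class and 1 gene name. Before deposit, the authors trimmed adaptors (Cutadapt 1.8.1), dropped reads under 15 bases or without adaptor and reads without a quality of 20 in 80% of bases (FASTX-Toolkit 0.0.14), mapped without mismatches to GRCm38 (Bowtie 1.1.2) and annotated by position (miRBase 20, UCSC tracks, Ensembl 84). These counts were not normalized. Reads that differ from the genome at any base are therefore left out. Lists of miRNA reads served only for the total of annotated reads.

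Counts were summed by type and anticodon and divided by the library's tRNA reads (Python 3.11.15, pandas 2.3.3, scipy 1.17.1). With 4911281 to 25976737 tRNA reads per library, 95% Wilson intervals and the limit of 3 counts describe counting error alone, since reads without molecular identifiers are not independent. Kits were compared by edgeR 4.0.16 (R 4.3.3; glmQLFit and glmQLFTest, all 6 libraries, no further normalization, no block) over 21 types and over anticodons that reached 10 counts in 2 or more libraries, and by the two-sided exact permutation test over 15 groupings. The scripts were tested on simulated counts. DESeq2 1.42.0, TMM, other divisors, a replicate block, a minimum of 4 counts per sequence and leaving out libraries were the alternatives; omitting Pro and summing its anticodons were added after seeing the data. All 8 types were named, with anticodons that held at least 10% of a type in the mean of at least 1 kit. Others are named where a count of features that failed a test is given. The members and lists were chosen with earlier results of these data known.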

Additional observations from a re-analysis of the deposited data

Results flagged for a closer look

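Some reads were listed as both piRNA and tRNA, without a gene, and so entered no type: 413 over all libraries, a signal in data that the comparisons did not use. They numbered 182 and 125 in NEBNext, 5 and 0 in TruSeq, and 60 and 41 in TailorMix, and came to at most 0.294% of the reads of the 8 types in any library. Most reads of the 8 types were Pro, so this percentage does not describe the scarcer types. In TailorMix these reads outnumbered those of Phe (17 and 29) in both libraries, and those of Tyr and Ile in replicate 1. In NEBNext they outnumbered those of Ile in both libraries. In TruSeq they were fewer than the reads of any of the 8 types. Whether they belong to these types was not tested, nor was their effect on the differences between kits.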

How the results depend on the processing

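The number of members that differed by kit (7 of 8) ran from 6 to 8 when single libraries were left out, and that of all 21 types from 19 to 21. Counts of calls that moved by more than 1.5 times were these. Over types, TMM gave 5 members higher in TruSeq than in NEBNext, and 6 higher and 1 lower in TailorMix than in NEBNext; DESeq2 gave 5 higher in TruSeq than in NEBNext, the divisor without Glu, Gly, Val and His 5 lower in that contrast, and sequences with at least 4 counts 1 higher in TailorMix than in NEBNext. Lower calls in TailorMix against NEBNext ran from 1 (without TailorMix replicate 1) to 3 over single libraries left out. Over anticodons, TMM gave 7 higher in TruSeq than in NEBNext and 7 lower in TailorMix than in TruSeq, DESeq2 gave 6 and 8, and summing the Pro anticodons gave 5 of the latter. Main counts for these 2 contrasts were 3 and 3, against backgrounds of 19.1% and 25.5% of all 47 anticodons. Lower anticodon calls in TailorMix against NEBNext, 8 with all libraries, ran from 5 (without NEBNext replicate 2) to 7. With all libraries, 38.3% of all 47 anticodons were called lower in TailorMix than in NEBNext. For the other settings, shares of calls by contrast over all features were not counted, so these counts describe the members alone. The cause of these changes was not tested.

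Log2 fold changes of types that turned sign under TMM were, for TruSeq against NEBNext, Asn (1.288), Thr (0.3002) and Trp (1.224), and for TailorMix against NEBNext, Arg (1.498), Phe (0.6128), Pro (1.396) and Trp (1.035). Without the 4 dominant types they were Pro (-0.08617, TruSeq against NEBNext), Arg (0.01689, TailorMix against NEBNext) and Trp (0.1317, TailorMix against TruSeq). With DESeq2 they were Asn (0.5633) and Trp (0.5027) for TruSeq against NEBNext, Arg (0.111) and Pro (0.0001643) for TailorMix against NEBNext, and Tyr (-0.2585) for TailorMix against TruSeq. Arg in TailorMix against NEBNext ran from -0.1655 to 0.1798 over single libraries left out.

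The summed share of the 8 types in NEBNext, TruSeq and TailorMix was 14.98%, 13.64% and 13.77% of tRNA reads without the 4 dominant types (exact permutation test, p = 0.3333), and 0.06787%, 0.06472% and 0.05423% of tRNA reads without Pro (p = 0.3333 by the same exact test). Of annotated reads it was 0.544% in TruSeq and 0.407% in TailorMix. With the divisor without the 4 dominant types, the exact p of Pro was 0.4667. The order of kits in the share of Ile AAT changed with a minimum of 4 counts (exact p = 0.06667). The exact p of Pro TGG ran from 0.4 (without TruSeq replicate 1) to 1, with the order of kits changed without TruSeq replicate 1 or TailorMix replicate 2. Pooling a kit's reads gives no p and left the highest kit as it was in all 8 types.

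Serum numbers could not be shown to pair the libraries: deviations from kit means over 21 types correlated at 0.2, 0.0508 and 0.118 between kits. With the replicate block, 7 of the 8 types (20 of all 21) and 11 of their anticodons (35 of all 47) were called by kit, 2 types in place of 3 were higher in TruSeq than in NEBNext (Pro was lost), and Arg in TailorMix against NEBNext was 0.000557. Types at the level of Phe rest on 17 to 29 reads in the shallower kits, which limits what a difference there can show.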
